A study of Mus musculus with 104 samples.

Results

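The effect of phosgene on lung messenger RNA at 72 h was compared with its effect at 48 h, gene by gene, in 13 mouse lungs. The effect at a time is the level in phosgene lungs minus the level in air lungs of that time, on the log2 scale, and the change is the effect at 72 h minus the effect at 48 h. The members were the lungs labelled CG 32 mg at 48 (3 lungs) and at 72 (3 lungs) and those labelled Air 1 at 48 (4 lungs) and at 72 (3 lungs), each lung measured on 2 chips, so 26 of the 104 chips of the series and 13 of its 52 lungs. CG is a code for phosgene. Outside these 13 lungs, list levels are given against 3 untreated lungs, labelled None None. Genes chosen by their 24 h effect rest on lungs labelled CG 32 mg and Air 1 at 24, 3 of each. The labels give no unit for the times, no volume of air for the 32 mg, no meaning for the 1 of the air label and no strain, sex or age. Hours rest on knowledge of the study. The labels name no allele and no further agent in any of the 4 groups. Whether each numbered lung came from its own animal is not stated, so p-values describe the spread between numbered lungs, part of which may be technical. The test covered 12393 genes of the array, with 1 value per lung, so precision rests on the number of lungs and on a spread shared over all 52.

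Phosgene is a reactive gas that damages the thin wall between air and blood in the deep lung. Leakage of fluid and inflammation dominate the first day in rodents, followed by a repair phase in which epithelial cells divide and spread over the damaged wall and macrophages clear debris. Cells meet such electrophilic damage with glutathione synthesis and metallothioneins, and the adrenal stress response adds genes switched on by the glucocorticoid receptor.

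The lungs carried the transcripts of lung epithelium in every group. Intensity over the 13 lungs ran from 4817 to 9140 for Sftpc (surfactant protein C of alveolar type 2 cells), from 4828 to 9288 for Scgb1a1 (the secretoglobin of club cells) and from 1818 to 2645 for Ager (a receptor of alveolar type 1 cells). Chip medians of the 4 groups lay between 69.2 and 82.2 intensity units, and the 3′ to 5′ ratio of the Gapdh control, a sign of RNA quality, ran from 0.817 to 1.488 and from 0.808 to 1.524 in the air lungs of 48 and 72 h and from 0.74 to 1.435 and from 0.766 to 1.589 in the phosgene lungs. Air lungs carried the markers of skeletal muscle unevenly. The summed intensity of 11 skeletal muscle genes ran from 200.3 to 3027 in air lungs of 48 h and from 174 to 1142 in air lungs of 72 h, against 199 to 228 and 209 to 248 in phosgene lungs. In replicate 4 of the 48 h air lungs and replicates 1 and 3 of the 72 h air lungs 7 of the 11 genes lay above all other lungs, and none of the 11 was at 0. Every change rests in part on these 3 air lungs. Without them the change over all genes had a Pearson correlation of 0.65 with that of all lungs, and of the changes of 214 named genes 22 turned sign and 113 turned sign or moved by over 1.5 times. The median changed sign in 11 of the 47 gene lists, and the values without them stand beside those of the main lists and of several genes.

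No gene passed the test of the change. Of 12393 genes, 0 were called higher and 0 lower at an adjusted p under 0.05 (limma with Benjamini-Hochberg adjustment over all genes), which is 0% of the genes tested. The smallest adjusted p was 0.608, for Phgr1. At an unadjusted p under 0.05 there were 294 genes (2.37%), 185 higher (1.49%) and 109 lower (0.88%), where 620 are expected if no gene changed. The 95% interval of the change had a median half-width of 0.45 on the log2 scale, and it lay within 1 log2 unit of 0 for 11183 genes (90.2%). A gene that misses the threshold is not shown to be stable, and its interval gives the sizes of change the lungs leave possible. Without the 3 air lungs high in muscle genes, 2 genes were called higher, Tnfsf8 and Pml, and 0 lower, with 3 air lungs left at 48 h and 1 at 72 h.

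The phosgene effect itself was called in many genes at each time. At 48 h 346 genes were higher (2.79%) and 329 lower (2.65%) in phosgene lungs, and at 72 h 270 were higher (2.18%) and 235 lower (1.9%). The lungs of the 2 times are separate. Of the 346 genes higher at 48 h 180 were higher at 72 h too, which is 52% of the first list and 66.7% of the second, and of the 329 lower genes 114 were lower at both, 34.7% and 48.5%. No gene was called in opposite directions. Across the 12393 genes the effects at the 2 times had a Pearson correlation of 0.68 and a Spearman correlation of 0.58. The genes are not independent replicates, and all lungs share the platform and the scaling. The 72 h counts fell to 91 higher and 76 lower without the 3 air lungs high in muscle genes, and to 35 and 9 without the air lungs numbered 155 to 159, which leaves 1 air lung at 72 h. Single lungs also moved the counts. At 48 h they were 214 higher and 208 lower without phosgene replicate 1 and 226 and 169 without phosgene replicate 3. At 72 h they were 138 and 103 without phosgene replicate 2, 136 and 111 without phosgene replicate 3, and 131 and 97 without air replicate 3. With hybridization day as a term, which drops replicate 2 of the 72 h air lungs, 147 genes were called higher and 116 lower at 72 h, and 0 genes in either direction for the change.

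**Figure D1:**
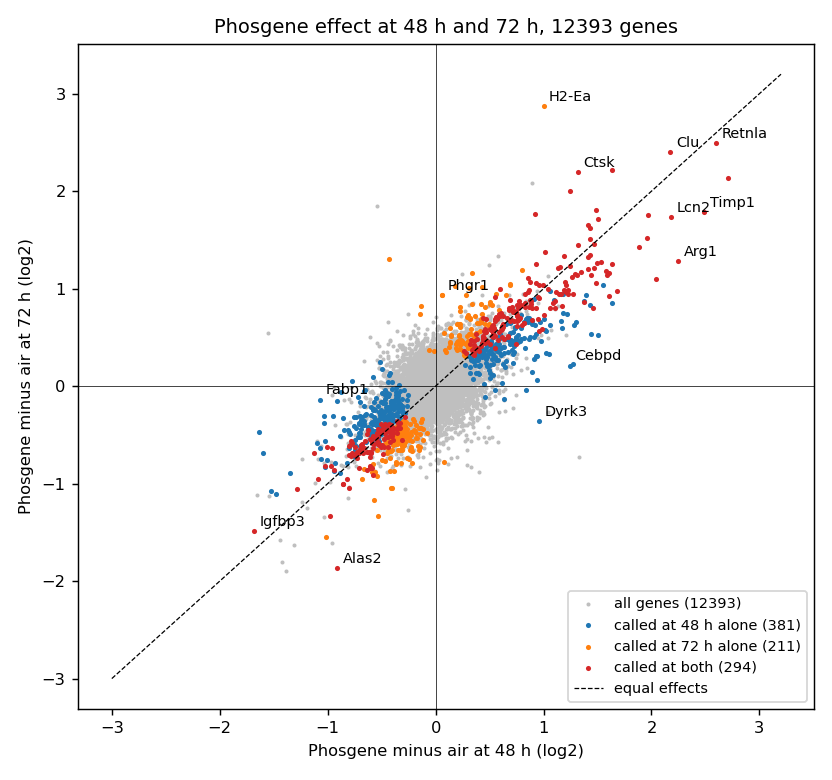
Each point is a gene, with the phosgene effect at 48 h (log2) on the horizontal axis and at 72 h on the vertical axis. Colours mark genes called at an adjusted p under 0.05 at 48 h alone, at 72 h alone or at both, and the dashed line marks equal effects. The 180 higher and 114 lower genes called at both times lie in the upper right and lower left, and Cebpd, Dyrk3 and Fabp1 are labelled among genes off the line.

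Genes that had already responded at 24 h, in other lungs, give a view of the trend whose choice uses neither the 48 h nor the 72 h effect. The spread behind the 24 h calls was shared over all 52 lungs, those of 48 h and 72 h included. The 131 genes called higher at 24 h (1.06% of genes) had a median effect of 0.86 on the log2 scale at 24 h, 0.63 at 48 h and 0.45 at 72 h. Their median change from 48 to 72 h was -0.13, with 99 of 131 lower. The 116 genes called lower at 24 h (0.936%) went from -0.62 to -0.44 and -0.35, with a median change of 0.11 and 87 of 116 higher. Over all genes the median change was 0.024, with 6866 of 12393 higher. Without the 3 air lungs high in muscle genes the medians of the sets were -0.15, with 94 of 131 lower, and 0.12, with 77 of 116 higher, beside 0.0097 over all genes. Among genes called at both later times the median change was -0.016 for the 180 higher genes and 0.00013 for the 114 lower ones. Those genes were chosen by the 48 h and 72 h effects themselves, so a small median change follows in part from the choice.

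Genes of cell division formed the group with the most members called at 48 h. Of 24 mitosis genes 20 rose at 48 h and 12 at 72 h, none fell, and the median effect was 0.97 at 48 h and 0.64 at 72 h on the log2 scale, after 0.12 at 24 h. Of 24 DNA replication genes 13 rose at 48 h and 9 at 72 h, with medians of 0.59 and 0.53 and a median change of -0.086 (-0.19 without the 3 air lungs high in muscle genes). Bub1b, a kinase of the spindle checkpoint, had intensities of 83.4, 53.3 and 40.3 in the phosgene lungs of 48 h and 37.8, 58.9 and 32.1 in those of 72 h, against 5.05 to 11.96 in the 7 air lungs. Both phosgene groups lay above all air lungs and overlapped each other. Its change was -0.40 (SE 0.27, 95% interval -0.95 to 0.16).

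Rrm2, a subunit of ribonucleotide reductase, which makes the building blocks of DNA, rose by 1.88 (SE 0.21, adjusted p = 5.89e-08) at 48 h and 1.43 (SE 0.22, adjusted p = 1.04e-04) at 72 h. Aurka, a kinase of the spindle poles, rose by 0.98 (SE 0.16, adjusted p = 6.95e-05) at 48 h and 0.59 (SE 0.17, adjusted p = 0.0377) at 72 h. The change was -0.45 for Rrm2 and -0.39 for Aurka, with intervals of -1.07 to 0.17 and -0.86 to 0.075. The mean level of the 24 mitosis genes above untreated lungs was 0.67 to 0.93 in the 3 phosgene lungs of 48 h and 0.65 to 0.76 in those of 72 h, and -0.48 to 0.15 in the air lungs. The median change of the list was -0.22, lower in 22 of 24 members. It was 0.065 with hybridization day as a term and -0.46 without the 3 air lungs high in muscle genes. It was positive in 2 of the 31 alternative settings. Some of the 31 change only the variance model, the replicate block or the groups fitted, and cannot move a median.

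The promoters of Bub1b and Aurka are shown because these genes were called at both times and their type of gene often carries the CCAAT box, a site for the NF-Y factor in many cell cycle promoters. The 250 bases before the RefSeq start (GRCm38.p6), 5′ to 3′ on the strand of the gene, hold CCAAT or its reverse complement, in capitals, once in Bub1b (chr2:118597961-118598210, plus strand) and at 2 places in Aurka (chr2:172370571-172370820, minus strand). The motif was in 17 of the 20 mitosis genes that have a window, and in 33.8% of all 32851 windows, both strands searched. A gene counted if any of its windows held the motif, while the share is over single windows, so the measures are unlike.
Bub1b: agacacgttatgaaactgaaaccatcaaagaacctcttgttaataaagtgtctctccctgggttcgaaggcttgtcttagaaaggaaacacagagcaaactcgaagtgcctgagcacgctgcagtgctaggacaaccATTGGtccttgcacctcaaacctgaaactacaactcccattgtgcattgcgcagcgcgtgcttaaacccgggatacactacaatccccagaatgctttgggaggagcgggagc
Aurka: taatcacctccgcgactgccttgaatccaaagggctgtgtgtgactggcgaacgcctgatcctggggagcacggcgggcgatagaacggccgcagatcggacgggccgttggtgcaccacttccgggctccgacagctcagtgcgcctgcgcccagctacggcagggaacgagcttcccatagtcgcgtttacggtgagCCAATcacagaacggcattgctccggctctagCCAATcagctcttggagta

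Genes of injured and regenerating epithelium were high at both times. Of 15 genes 12 rose at 48 h and 10 at 72 h, all 10 among the 12, with median effects of 1.18 and 0.86 and a median change of -0.17 (-0.30 without the 3 air lungs high in muscle genes). Clu, a secreted chaperone, had intensities of 1891, 2092 and 2233 in the phosgene lungs of 48 h and 1841, 2549 and 2702 in those of 72 h, and 379 to 488 in air. Its change was 0.22 (SE 0.34, 95% interval -0.46 to 0.91). Lcn2, an iron-carrier binding protein made by injured epithelium and neutrophils, stood at 1513, 1364 and 1891 at 48 h and 722, 1696 and 1386 at 72 h after phosgene, and at 247 to 414 in air. Ereg, an epidermal growth factor family ligand, was lower at 72 h, 24.6, 36.9 and 60.5 against 134, 61.1 and 67.4 at 48 h, with 6.35 to 23.5 in air. The phosgene groups of Ereg did not overlap, and over all genes 355 (2.86%) lay lower in every phosgene lung of 72 h than in every one of 48 h and 509 (4.11%) higher. Ereg was named for a small p of the change, so this gap is no finding. For Ereg the change was -0.71 (SE 0.32, 95% interval -1.35 to -0.064), which was not called. The 14 neutrophil markers had 1 member called at 48 h and 2 at 72 h, with summed intensities of 3019 to 3637 and 2206 to 3768 in phosgene lungs and 1015 to 1734 in air lungs. Lcn2 is 1 of the 14, and its intensities above make up a large part of those sums. The median change of the neutrophil list was -0.22. It was -0.082 without the 3 air lungs high in muscle genes and -0.0061 without phosgene replicate 3 of 72 h.

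Mt2, Gclc and Atf3, genes of metal, oxidant and stress defence, rose at both times. Mt2, a metallothionein, had intensities of 1217, 725 and 509 at 48 h and 540, 509 and 1319 at 72 h after phosgene, and 189 to 364 in air. The phosgene effect was 1.41 (SE 0.27, adjusted p = 5.62e-04) at 48 h and 1.65 (SE 0.29, adjusted p = 3.30e-04) at 72 h, and the change 0.24 (SE 0.39, 95% interval -0.55 to 1.04). Gclc, the catalytic subunit of the first enzyme of glutathione synthesis, rose by 0.96 at 48 h and 0.91 at 72 h, with all phosgene lungs (738 to 868) above all air lungs (296 to 579). Atf3, a stress-induced repressor, rose by 1.24 and 1.23. The changes of Gclc and Atf3 were -0.052 (-0.67 to 0.56) and -0.011 (-0.91 to 0.89). Hmox1, which degrades haem, and Cdkn1a, a cell cycle inhibitor, were called at neither time, with effects of 0.49 and 0.44 and of 0.69 and 0.74. A dimmer probe set of Cdkn1a gave effects of 1.07 and 0.39 and a change of -0.68, beside 0.045 for the brighter one, which was -0.54 without the 3 air lungs high in muscle genes. Of 18 NRF2 target enzymes 1 was called higher and 2 lower at 48 h, and 1 and 1 at 72 h.

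The Mt2 promoter is shown because the gene was called at both times and metallothionein promoters are known for metal response elements with the core TGCNCNC. The 250 bases before its start (chr8:94172368-94172617, plus strand, GRCm38.p6, RefSeq) hold 5 such cores on either strand, in capitals. One or more cores were in 44.4% of all windows, and 5 or more in 0.3%.
Mt2: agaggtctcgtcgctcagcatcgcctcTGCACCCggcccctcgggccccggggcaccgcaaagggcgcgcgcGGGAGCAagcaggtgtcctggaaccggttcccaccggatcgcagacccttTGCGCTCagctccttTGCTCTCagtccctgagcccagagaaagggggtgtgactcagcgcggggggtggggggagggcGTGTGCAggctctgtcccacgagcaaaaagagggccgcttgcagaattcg

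Genes of macrophages and their lysosomes were called higher at both times. Of 20 lysosome and clearance genes 8 rose at 48 h and 11 at 72 h, and of 15 markers of monocytes and recruited macrophages 4 and 7. The median effect went from 0.40 to 0.47 for the first list and from 0.30 to 0.61 for the second, and the median change was 0.098 and 0.10 (0.11 and -0.013 without the 3 air lungs high in muscle genes). No member was called for the change. Ctsk, a cathepsin, had intensities of 274, 413 and 225 at 48 h and 176, 600 and 228 at 72 h in phosgene lungs, which overlap, and 133, 90.8, 98.7 and 115 and 69.9, 28.5 and 62.05 in air lungs, lower at 72 h in every lung. Its change was 0.88 (SE 0.49, 95% interval -0.12 to 1.87), made up of -0.021 in the phosgene lungs and -0.90 in the air lungs, 72 h minus 48 h, and was 1.44 without those 3 air lungs. Gpnmb, a glycoprotein of lipid-laden macrophages, rose at 48 h (1.24, adjusted p = 0.00614) and at 72 h (adjusted p = 1.14e-04), with 142, 289 and 96.00 and 132, 397 and 272 in the phosgene lungs, which overlap. Tyrobp, an adaptor of myeloid receptors, and Hexa, a lysosomal enzyme, rose at 72 h (0.85 and 0.63). Their effects of 0.50 and 0.22 at 48 h were not called. Ctsk, Gpnmb, Tyrobp and Hexa are of the first list, where 18 of 20 changes were positive. In the second list 9 of 15 changes were positive, from -0.39 for Msr1 to 0.49 for Cx3cr1. Without the 3 air lungs high in muscle genes these 2 were -0.66 and -0.12. The median change of the second list was -0.19 with the next brightest probe set. In bulk tissue more cells of a type and more RNA per cell cannot be told apart, and the same holds for fewer cells and less RNA.

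Markers of alternative activation were called in 4 of 15 genes at 48 h and 3 at 72 h. Retnla, a secreted resistin-like protein, was the second largest rise at both times, with 3800, 3241 and 3794 at 48 h and 2646, 3658 and 3363 at 72 h after phosgene. In air it stood at 393, 366, 1821 and 429 at 48 h, where replicate 3 stood apart, and 479, 930 and 382 at 72 h. Its change was -0.11, and -0.69 without the 3 air lungs high in muscle genes. Arg1, arginase, was called higher at both times, with 75.1, 61.5 and 167 at 48 h and 8.20, 58.8 and 59.1 at 72 h after phosgene and 3.59 to 14.2 in air. One phosgene lung of 72 h lay within the air range, and the change was -0.96 (SE 0.46, 95% interval -1.89 to -0.031), which was not called. C1qb, a subunit of the first complement component, had an effect of 0.43 (adjusted p = 0.179) at 48 h and 1.02 (8.42e-04) at 72 h. Complement counted 3 higher and 1 lower of 14 genes at 48 h and 4 higher at 72 h, and C2, the complement protease called lower at 48 h (-0.70), stood at -0.17 at 72 h.

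**Figure D2:**
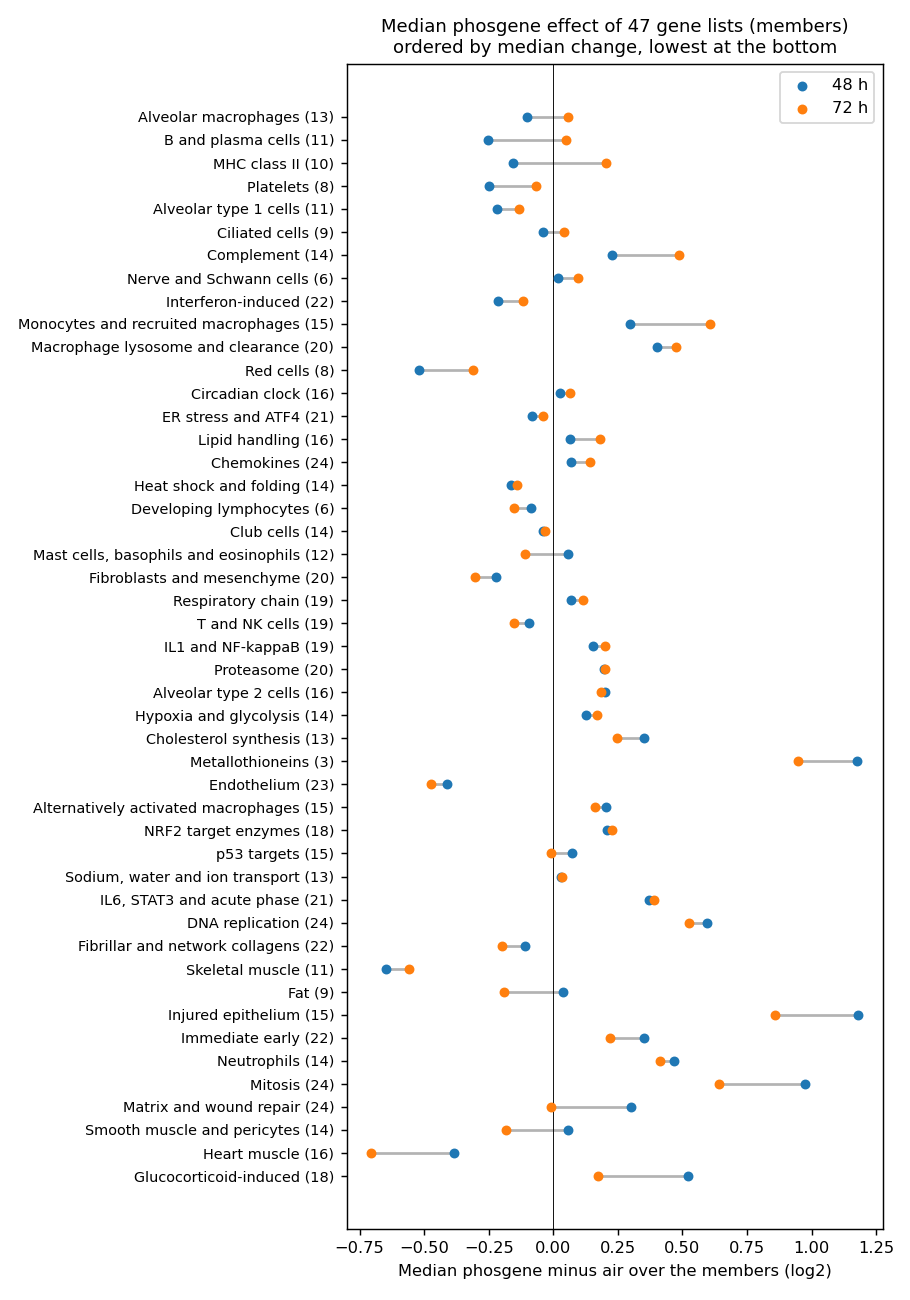
For each of 47 gene lists (number of members in brackets) the points give the median phosgene effect over the members, on the log2 scale, at 48 h (blue) and 72 h (orange), ordered by the median change with the lowest at the bottom. The mitosis, injured epithelium and metallothionein lists lie far to the right at both times. The skeletal muscle, heart muscle, endothelium and red cell lists lie to the left. The medians of skeletal muscle, -0.65 and -0.56, rest in part on the 3 air lungs high in those genes. The glucocorticoid list has medians of 0.52 and 0.17.

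Genes switched on by the glucocorticoid receptor had the lowest median change of the 47 lists with all lungs, and in 21 of the 31 alternative settings. The 31 include settings of the variance model, the replicate block and the groups fitted that cannot move a median, so they add nothing to that count. Of 18 genes 7 rose at 48 h and 2 at 72 h, and the median effect was 0.52 at 48 h and 0.17 at 72 h, with a median change of -0.37, lower in 15 of 18 members. The 2 called at 72 h were Mt2 and Lcn2. Members on both sides, Cebpd and Per1 among them, answer to other signals as well, and the cause of the change was not tested. The mean level of the list above untreated lungs was 0.34 to 0.73 in the 3 phosgene lungs of 48 h and -0.12 to 0.30 in those of 72 h, and -0.25 to -0.04 in air lungs. The phosgene groups did not overlap, and every phosgene lung lay above every air lung of its time. Neither trait was particular to this list. The p53 target list also lay lower at 72 h without overlap, and the B and plasma cell and the nerve and Schwann cell lists lay higher. The mitosis and injured epithelium lists also lay above air at each time. The median change was between -0.49 and -0.16 in the 31 alternative settings. Without the 3 air lungs high in muscle genes it was -0.37, where the median of mitosis was lower (-0.46).

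Cebpd, a transcription factor of inflammation and glucocorticoid response, stood at 844, 715 and 803 in phosgene lungs of 48 h and 356, 376 and 390 in those of 72 h. Air lungs lay at 318, 353, 333 and 287 at 48 h and 342, 279 and 347 at 72 h. All 3 phosgene lungs of 48 h were brighter than any other lung, and the phosgene lungs of 72 h lay above every air lung by a small margin. The effect was 1.25 (SE 0.18, adjusted p = 1.65e-05) at 48 h and 0.21 (adjusted p = 0.710) at 72 h, and the change -1.04 (SE 0.27, 95% interval -1.58 to -0.49), which was not called. Between the phosgene lungs of the 2 times a difference of -1.04 (SE 0.20, adjusted p = 0.0301) was called, but not when any 1 of 5 phosgene lungs was left out, where the adjusted p (limma) ran from 0.0936 to 0.430. A dimmer probe set of the gene gave a change of 0.27, against the direction of the brighter one.

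Per1, a clock gene also switched on by glucocorticoids, had 245, 204 and 188 at 48 h and 66.8, 93.8 and 160 at 72 h after phosgene, with 54.7 to 138 in air. Its change was -1.04 (SE 0.34, 95% interval -1.72 to -0.36), which was not called. Tsc22d3, the glucocorticoid-induced leucine zipper, had 637, 507 and 624 at 48 h and 425, 393 and 365 at 72 h, which is within the air range of 353 to 574, and a change of -0.68 (-1.23 to -0.14). Errfi1, a feedback inhibitor of the epidermal growth factor receptor, stood at 1594, 907 and 1266 and 491, 584 and 898, with 470, 573, 450 and 493 in air at 48 h and 366, 401 and 455 at 72 h. Each phosgene group of Errfi1 lay above the air lungs of its own time, and the effect at 72 h was not called (0.63, adjusted p = 0.156). These 4 genes were named for their small p, so that their phosgene groups do not overlap is no finding. Of the 18 list members 9 were lower in every phosgene lung of 72 h than in every one of 48 h and 0 higher, beside 2.86% and 4.11% of all genes. The 16 clock genes had a median change of 0.092 (0.043 without the 3 air lungs), with 5 lower and 11 higher, and Dbp, a clock output gene, had a change of 0.52 (-0.18 to 1.23).

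Immediate early genes, which answer growth factors and stress within minutes, also had mostly negative changes. Of 22 genes 5 rose at 48 h (Junb, Atf3, Maff and, named after their values were seen, Egr2 and Myc) and 1 at 72 h (Atf3), and 20 of 22 had a negative change, with a median of -0.19 (-0.090 without the 3 air lungs high in muscle genes). Maff, a small partner of NRF2, stood at 49.1, 28.8 and 54.6 at 48 h and 16.1, 23.6 and 22.9 at 72 h, with 7.04 to 17.9 in air. Junb, a subunit of AP-1, stood at 241, 244 and 274 and 221, 186 and 199, with 100 to 166 in air. The change was -0.72 (SE 0.33, 95% interval -1.39 to -0.043) for Maff and -0.40 (SE 0.22, 95% interval -0.85 to 0.036) for Junb, and neither was called.

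Acute phase genes had changes of both signs. Of 21 genes of interleukin 6, STAT3 and the acute phase 8 rose at 48 h and 4 at 72 h, with median effects of 0.37 and 0.39 and a median change of -0.082 (-0.13 without the 3 air lungs high in muscle genes). Orm1, a plasma acid glycoprotein, stood at 33.98, 20.8 and 41.2 at 48 h and 10.4, 17.6 and 12.4 at 72 h, and at 1.495 to 5.82 in air. Orm1 was named for its small p, so the gap between its phosgene groups is no finding, and 2.86% of all genes lay lower in this way. Cp, the copper carrier ceruloplasmin, was at 1526, 1269 and 1141 at 48 h and at 882, 1031 and 873 at 72 h, the last within the air lungs of 72 h (776, 1256 and 886). Their changes were -0.65 (SE 0.29, 95% interval -1.22 to -0.071) and -0.88 (SE 0.33, 95% interval -1.55 to -0.21), and that of Cp was -1.34 without the 3 air lungs. Serpina3n, a protease inhibitor, had a change of -0.95 with a wide interval of -1.86 to -0.038. Saa3, a serum amyloid made in lung, had a positive change (0.85, 0.033 to 1.66), with an effect of 0.92 at 48 h and 1.77 at 72 h, and 136, 120 and 456 in the phosgene lungs of 72 h, where replicate 3 stands above the others. None of these changes was called.

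**Figure D3:**
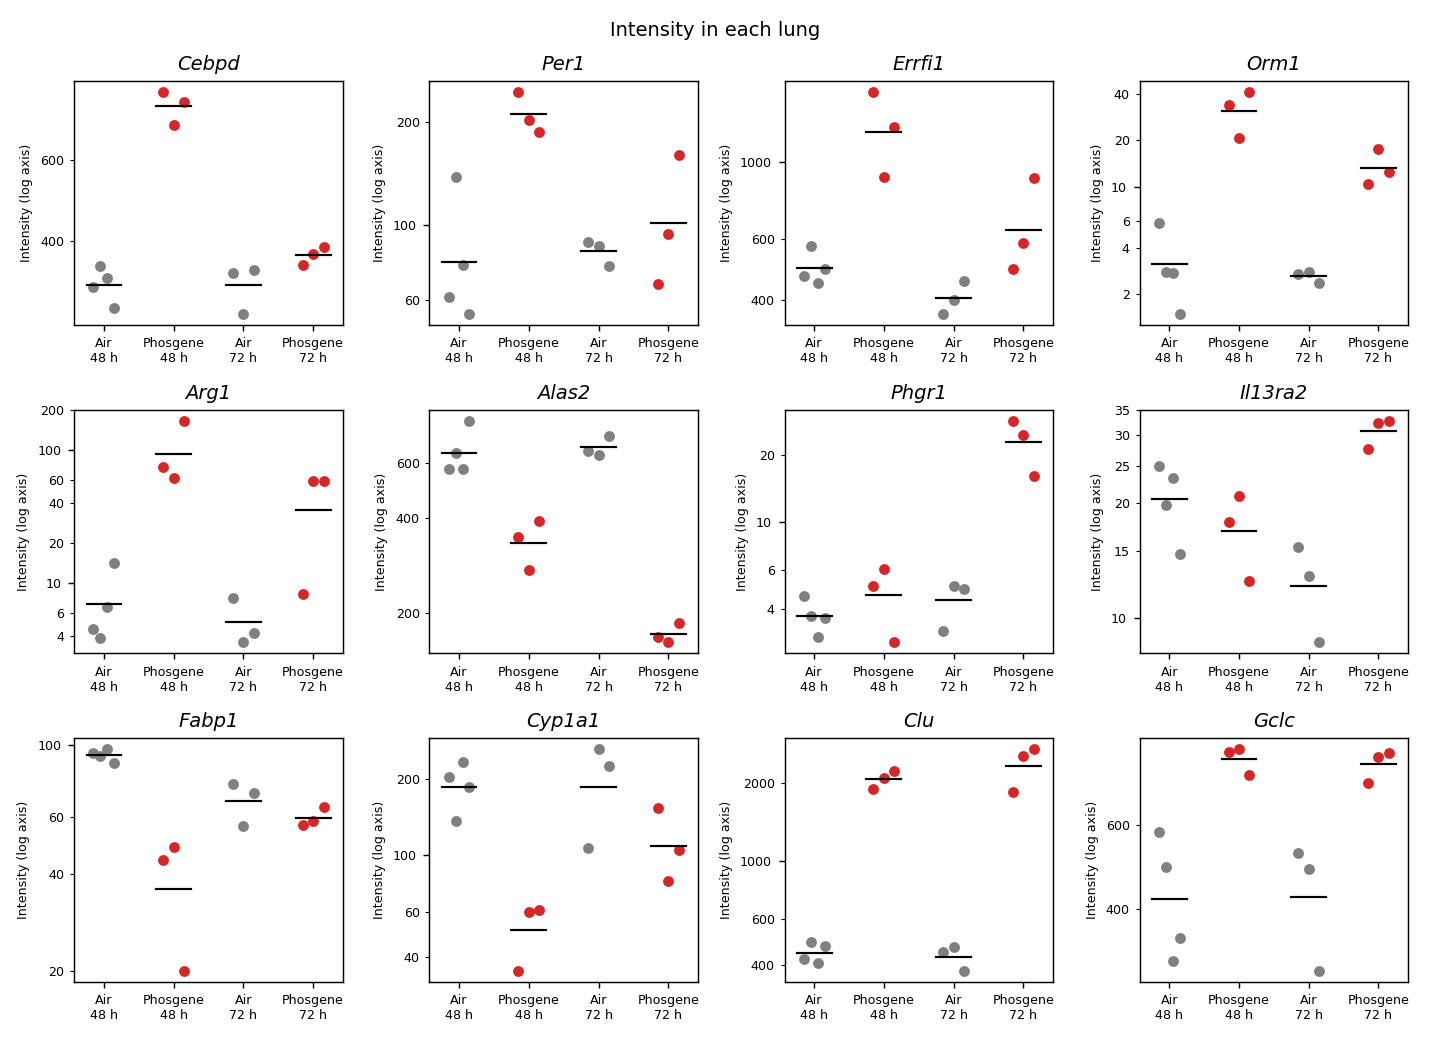
Each point is the intensity of a gene in 1 lung (mean of 2 chips), on a log axis, for air lungs (grey, 4 at 48 h and 3 at 72 h) and phosgene lungs (red, 3 each), and the black bars are group means on the log2(intensity + 16) scale. Cebpd, Per1, Errfi1 and Orm1 are lower in the phosgene lungs of 72 h than in those of 48 h, Alas2 is lowest in the phosgene lungs of 72 h, Phgr1 and Il13ra2 are high in the phosgene lungs of 72 h, and Clu and Gclc lie above air at both times.

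Matrix, wound repair and smooth muscle genes had mostly negative changes, none of them called. Of 24 matrix and wound repair genes 6 rose and 1 fell at 48 h and 3 rose and 2 fell at 72 h, and 22 of 24 had a negative change, with a median of -0.23 (-0.28 without the 3 air lungs high in muscle genes). Timp1, an inhibitor of matrix proteases, had intensities of 743, 359 and 640 at 48 h and 248, 244 and 567 at 72 h after phosgene, and 70.4 to 109 in air, with a change of -0.70 (SE 0.37, 95% interval -1.45 to 0.040). Lox, which cross-links collagen and elastin, stood at 961, 621 and 764 at 48 h and 391, 442 and 507 at 72 h, and at 530 to 745 in air. The phosgene lungs of 72 h lay below every other lung of the 4 groups, which is no finding because Lox was named for its small p. For Lox 2 dimmer probe sets gave changes of -1.28 and -0.049 beside -0.83 for the brightest one. Rgs5, a marker of pericytes, had a change of -0.76 (SE 0.27, 95% interval -1.30 to -0.21), with 166, 139 and 183 in phosgene lungs of 72 h against 241, 281 and 260 in air. Smtn, a smooth muscle cytoskeletal protein, was called lower at 72 h (-0.49) and stood at -0.14 at 48 h. Of 14 smooth muscle and pericyte genes 13 had a negative change, with a median of -0.24, and of -0.14 without the 3 air lungs high in muscle genes.

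Endothelial genes were lower at both times. Of 23 genes 9 fell at 48 h and 8 at 72 h, with 6 in common and none higher, and the median effect was -0.41 and -0.47. The median change was -0.041 (-0.054 without the 3 air lungs high in muscle genes). The mean level of the list was -0.57 to -0.41 in phosgene lungs of 48 h and -0.68 to -0.38 in those of 72 h, and -0.10 to 0.076 in air, with no overlap. Plvap, a protein of endothelial fenestrae, fell at 48 h, with an effect of -0.85 (SE 0.15, adjusted p = 3.16e-04), and had an effect of -0.45 (adjusted p = 0.125) at 72 h. Robo4, an endothelial guidance receptor, fell at 72 h (-0.66) and stood at -0.34 at 48 h. Npnt, a matrix protein of the alveolar wall, was called lower at both times (-0.96 and -0.63), with 1395 to 2208 in phosgene lungs and 2839 to 3359 in air lungs.

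Alas2, the erythroid enzyme that starts haem synthesis, fell at both times. Its intensities were 350, 275 and 391 in phosgene lungs of 48 h and 169, 162 and 187 in those of 72 h, and 572, 644, 575 and 817 and 654, 636 and 728 in air. Phosgene lungs of 72 h lay below those of 48 h, which lay below all air lungs, without overlap. Alas2 was among the genes of smallest p for the change, so the gap between its phosgene groups is no finding, and 2.86% of all genes share it. The effect was -0.91 (SE 0.19, adjusted p = 0.00189) at 48 h and -1.87 (SE 0.21, adjusted p = 1.99e-07) at 72 h, the largest fall of all genes called at 72 h, and the change was -0.96 (SE 0.28, 95% interval -1.53 to -0.38), which was not called. The change lay between -1.09 and -0.81 in the 30 alternative settings that give one, some of which cannot move it. It was -0.99 without the 3 air lungs high in muscle genes. The median change of the 8 red cell genes was 0.094 (-0.12 without those lungs). Of these, 4 fell at 48 h (Alas2, Slc4a1, Bpgm and, named after its values were seen, Fech) and 3 at 72 h (Alas2, Bpgm and Fech). The haemoglobin chain Hba-a1, whose near-identical copies a probe set may not tell apart, had effects of -0.30 and 0.12, and Hbb-b2 of -1.01 and -1.55. The summed intensity of the 8 genes was 841 to 970 at 48 h and 712 to 761 at 72 h after phosgene, and 1422 to 1973 in air.

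The Alas2 promoter is shown because it was the gene of largest fall at 72 h and erythroid promoters are known for GATA sites. Its 250 bases before the start (chrX:150547167-150547416, plus strand, GRCm38.p6, RefSeq) hold AGATAA once, on the other strand, in capitals. The motif was in 10.0% of all windows.
Alas2: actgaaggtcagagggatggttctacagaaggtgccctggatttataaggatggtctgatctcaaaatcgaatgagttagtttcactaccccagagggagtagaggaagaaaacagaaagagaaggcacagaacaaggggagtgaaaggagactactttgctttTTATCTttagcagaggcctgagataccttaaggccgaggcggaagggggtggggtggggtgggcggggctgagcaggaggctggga

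Heart muscle genes, which in mice are also expressed in the muscle sleeves of pulmonary veins, were called lower in some members at each time. Of 16 genes 4 fell at 48 h and 5 at 72 h, with medians of -0.39 and -0.70. Myh6, the atrial myosin heavy chain, had 313, 357 and 282 at 48 h and 255, 219 and 140 at 72 h after phosgene and 316 to 458 in air. Its change was -0.57 (SE 0.29, 95% interval -1.16 to 0.019). The mean level of the list ran from -0.78 to -0.08 in phosgene lungs of 72 h, and from -0.26 to -0.049 in those of 48 h, and the median change of the list was -0.29 (-0.23 without the 3 air lungs high in skeletal muscle genes, -0.13 without phosgene replicate 3 of 72 h and -0.11 with the next brightest probe set). The part of skeletal muscle markers in the result was not tested.

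**Figure D4:**
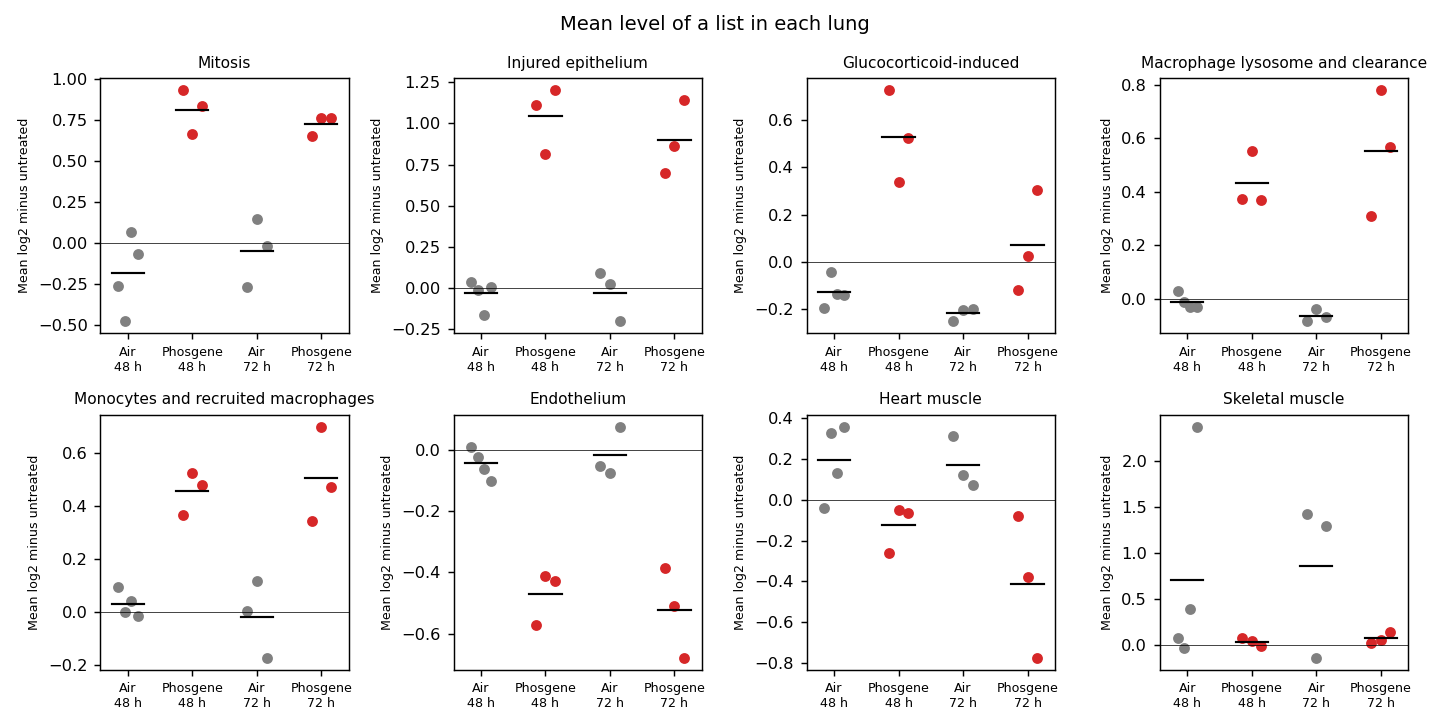
Each point is the mean over the members of a list, in 1 lung, of log2 level minus the mean of untreated lungs, for air (grey) and phosgene (red) lungs of 48 and 72 h, and the black bars are group means. The mitosis, injured epithelium and endothelium panels separate phosgene from air at both times without overlap, the glucocorticoid panel shows the phosgene lungs of 72 h below those of 48 h, and the skeletal muscle panel shows the 3 air lungs that stand apart.

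Phgr1, a small histidine- and glycine-rich protein known from gut epithelium, was the gene of smallest p for the change. It stood at 28.8, 24.9 and 16.1 in the phosgene lungs of 72 h and at 2.83 to 6.08 in the other 10 lungs. It was near the bottom of the scale except in those 3 lungs. The effect at 72 h was 0.93 (SE 0.14, adjusted p = 6.19e-05), and the change 0.87 (SE 0.19, 95% interval 0.48 to 1.25), adjusted p = 0.608. The difference between the phosgene lungs of the 2 times was 0.92 (SE 0.14, adjusted p = 9.17e-04), a call that was lost on chip A alone (adjusted p = 0.510) or without phosgene replicate 1 of 72 h (0.0593). Il13ra2, a decoy receptor for interleukin 13, followed with 27.7, 32.3 and 32.8 in phosgene lungs of 72 h, above 8.65 to 24.96 in all others. Its effect was 0.74 (SE 0.16, adjusted p = 0.00432) at 72 h and -0.15 at 48 h, and its change 0.88 (SE 0.22, 95% interval 0.44 to 1.33). The air lungs of the gene were lower at 72 h (15.4, 12.9 and 8.65) than at 48 h (24.96, 19.7, 23.2 and 14.7), and differed by -0.37 on the log2 scale, 72 h minus 48 h.

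Fabp1, a fatty acid binding protein expressed by alveolar macrophages in mice, fell at 48 h and was not called at 72 h. Intensities were 44.2, 48.6 and 20.05 in phosgene lungs of 48 h and 56.7, 58.3 and 64.4 in those of 72 h, and 94.6, 92.8, 97.4 and 87.9 and 75.7, 56.4 and 71.3 in air. The effect was -1.07 (SE 0.18, adjusted p = 1.04e-04) at 48 h and -0.14 at 72 h (adjusted p = 0.826), the change 0.93 (SE 0.26, 95% interval 0.40 to 1.46), and a dimmer probe set gave 0.79. Itgax, an integrin of alveolar macrophages, and Abcg1, their cholesterol exporter, had changes of 0.50 and 0.43. Without the 3 air lungs high in muscle genes these were 0.52 and 0.16. Fabp4, another fatty acid binding protein of the same marker list, had the lowest change of the list, -0.46, and -0.56 without those lungs. Of the 13 alveolar macrophage markers 9 had a positive change, beside 6866 of 12393 genes, with a median of 0.26. That median ran from -0.083 with the next brightest probe set to 0.39 over the alternative settings. It was 0.048 for 1 common control, where the air lungs cancel, and 0.16 without the 3 air lungs high in muscle genes. The median effect was -0.10 at 48 h and 0.055 at 72 h. Of these 13, 1 rose and 1 fell at 48 h, and 1 rose at 72 h.

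B cell and class II genes had mostly positive changes, none of them called, and T and NK cell genes had not, with 10 of 19 positive and a median of 0.0028. Cd79b, a chain of the B cell receptor, had 47.9, 74.04 and 55.3 at 48 h and 88.04, 118 and 91.1 at 72 h after phosgene, and 69.00 to 120 in air. Cd79b was named for its small p, so that its phosgene groups do not overlap is no finding, and 4.11% of all genes lay higher in this way. Its change was 0.77 (SE 0.28, 95% interval 0.19 to 1.34). Of 11 B and plasma cell markers 10 had a positive change, with a median of 0.23, and of 10 class II genes 8, with a median of 0.22 (0.18 and 0.25 without the 3 air lungs high in muscle genes). Cd83, a surface protein of activated dendritic and B cells, had a change of 0.76 (SE 0.23, 95% interval 0.29 to 1.22), with 56.6, 85.5 and 58.1 at 48 h and 95.3, 85.1 and 119 at 72 h. H2-Ea, a class II chain, was the largest rise at 72 h, with 391, 497 and 580 in phosgene lungs of 72 h, and 76.8, 421 and 51.6 in those of 48 h, of which 1 was as high as the 72 h lungs. Air lungs lay at 41.03 to 69.6. Its partner H2-Eb1 had high and low lungs in air too (139, 718, 179 and 652 at 48 h and 129, 621 and 95.8 at 72 h), and its change was 2.40, with an interval of -0.36 to 5.16, and 0.54 without the same 3 air lungs. Interferon-induced genes had a median change of 0.12 (0.046 without those lungs), with Bst2, an antiviral tether, called lower at 48 h (-0.87) and at -0.063 at 72 h.

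Cyp1a1, a monooxygenase induced through the aryl hydrocarbon receptor and expressed in lung endothelium, was among the largest falls at 48 h. It stood at 35.2, 59.7 and 61.2 in phosgene lungs of 48 h and 154, 79.2 and 106 in those of 72 h, without overlap, and at 107 to 262 in air. The gene was named for its fall at 48 h, which favours that gap, and 4.11% of all genes lay higher in this way. The effect was -1.60 (SE 0.27, adjusted p = 1.04e-04) at 48 h and -0.69 (adjusted p = 0.200) at 72 h, and the change 0.91 (SE 0.39, 95% interval 0.11 to 1.71), or 0.45 without the 3 air lungs high in muscle genes. Igfbp3, a binding protein of insulin-like growth factors, fell at both times, with effects of -1.68 and -1.49 and 50.9 to 143 in phosgene lungs against 164 to 531 in air. Lrg1, a secreted glycoprotein of inflammation and vessel growth and the largest rise at 48 h, had effects of 2.71 and 2.14.

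The other genes of smallest p were not called for the change. In Cep152 and Kl every phosgene lung lay below every air lung at 48 h and above every one at 72 h, as in 15 (0.121%) of all genes, and 1 gene (0.00807%) lay the opposite way. Cep152 and Kl were dim, with mean intensities over all chips of 26.2 and 8.12. Spata5, Tnfsf8, Cep152, Kl, Krt84 and Gm6211 had changes of 1.74, 0.90, 0.98, 0.67, 0.80 and 1.11, and their air lungs differed by -0.87 to -0.38, 72 h minus 48 h. Tnfsf8, a ligand of the tumour necrosis factor family, had 40.97, 34.5 and 40.95 and 48.04, 53.2 and 63.9 in phosgene lungs and 55.5, 65.1, 55.6 and 53.9 and 56.7, 17.2 and 38.6 in air, where replicate 2 of 72 h was the lowest of all lungs. Without the 3 air lungs high in muscle genes that lung is the only air lung of 72 h left, and the change of Tnfsf8 was then 1.54 (adjusted p = 0.0220). Mgat2, Rhoj, Tbpl1, Etfbkmt and Clca3b had changes of -0.57, -0.61, -0.64, -0.56 and -0.89. Dyrk3, a kinase that dissolves stress granules, had 29.7, 21.9 and 46.97 in phosgene lungs of 48 h and 6.75, 10.2 and 20.9 in those of 72 h, and 6.52, 9.88, 9.95 and 8.08 and 27.7, 26.6 and 8.94 in air, with a change of -1.32 (SE 0.34, 95% interval -2.01 to -0.63). Cdkn1c, an inhibitor of cyclin-dependent kinases, stood at 253, 230 and 202 at 48 h and 139, 129 and 127 at 72 h after phosgene, the last below every air lung (139 to 204), with a change of -0.90 (SE 0.28, 95% interval -1.47 to -0.33). Other probe sets of Mgat2 and Kl gave changes of 0.10 and -0.35, opposite to those of the brightest, and those of Spata5 0.14 and -0.25.

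**Figure D5:**
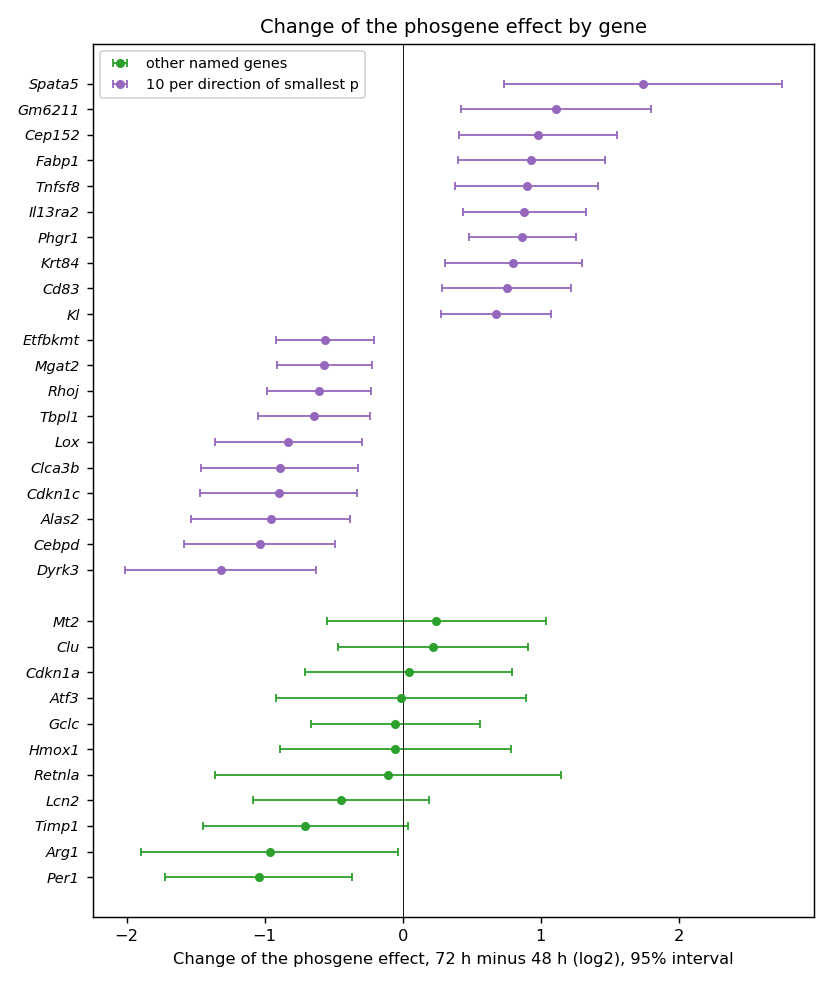
Points give the change of the phosgene effect from 48 to 72 h (log2) and bars its 95% interval from the limma fit, for the 10 genes of smallest p in each direction (purple) and 11 further genes (green). The purple genes were chosen by p, so their intervals lie clear of 0 by that choice, and no gene passed adjustment over 12393 genes, while Gclc, Atf3 and Mt2 have intervals on both sides of 0.

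Between air lungs of 72 and 48 h, 0 of 12393 genes were called (limma) and 277 (2.24%) had an unadjusted p under 0.05. In the phosgene lungs alone, 72 h against 48 h, Phgr1 was called higher and Cebpd lower (0.00807% of genes each, 0.0161% together), with 348 genes (2.81%) at an unadjusted p under 0.05. These comparisons share lungs with the change itself and are given as its parts. The genes of smallest p in air were Mccc1, a subunit of leucine breakdown, with -0.34, and Kera, a keratan sulphate proteoglycan, with 0.38.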

How the data were processed

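Total RNA of mouse lung was measured on 104 Affymetrix MOE430A chips of 52 lungs in 17 groups, of which 13 lungs in 4 groups enter the comparisons. The deposited intensity values had been scaled by the authors so that every chip has the same trimmed mean (2% removed at each end), as found from the table itself, where it runs from 150.03 to 150.04. No other step before deposit is stated by the labels or the file headers. Chip lots and hybridization days came from the deposited chip settings.

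Of 22690 probe sets, 20380 had 1 gene symbol, 691 several and 1555 none. The probe set of highest mean stood for each of 12393 genes, of which 4956 have more than 1. Both chips of a lung were averaged on log2(intensity + 16). One mean per group was fitted over all 52 lungs with limma 3.58.1 in R 4.3.3 (eBayes with a trend, 2-sided), which shares 1 estimate of the spread, and p-values were adjusted by Benjamini-Hochberg over all genes, with calls at an adjusted p under 0.05. All adjusted p-values in the text are from this fit unless a setting is named. Figures were drawn with matplotlib 3.10.9.

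The comparison and the 47 gene lists (731 entries matched, 83 not) were chosen with earlier results of these data known. Named genes are the 10 of smallest p for the change in each direction (none was called), up to 4 members of each list by that p, the 5 called genes of largest rise and of largest fall at each time, Hmox1, Gclc, Atf3, Mt2 and Cdkn1a, and the genes of smallest p in each direction between air lungs and between phosgene lungs. Alternatives changed the offset, scaling, filter, probe set, chip, groups, lungs, batch terms, weights, variance model and control. On simulated data for the change, 65 of 100 genes changed by 1 log2 unit and 97 of 100 changed by 2 were called. The unchanged rest of the 12393 genes gave 11 false calls. The simulated noise was independent between genes and many genes changed at once, which eases the adjusted threshold. These shares therefore do not give the power of the test in the real lungs.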

Additional observations from a re-analysis of the deposited data

Results flagged for a closer look

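In the 4 air lungs of 48 h, 1 lung stood far from the other 3 in 13 of 261 genes and lists checked (its gap to the nearest lung over the whole range exceeded Dixon's critical value). Chance flags about 1 in 20 such groups. Replicate 4 was high in the skeletal muscle genes Actn3 (49.1 intensity units, others at most 6.20), Myh2 (26.7) and Tnnt3 (115). Replicate 3 was high in Retnla (1821, others 366 to 429) and Pdia6 (562). Replicate 2 was high in Mt1 (324), Myh6 (458), Dbp (62.7) and Tnfsf8 (65.1) and low in Kif20a (8.26). Replicate 1 was high in Cxcl5 (84.9) and low in Psmb2 (291) and Lep (5.43).

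For 2 of 214 named genes, every phosgene lung lay below every air lung at 48 h and above every air lung at 72 h. The change was 0.98 on the log2 scale for Cep152 and 0.67 for Kl. Both genes were dim, with mean intensities over all chips of 26.2 and 8.12, and that of Kl lay below the offset of 16. Both were named for a small p of the change. Over all 12393 genes 15 (0.121%) lay this way and 1 (0.00807%) the opposite way. The limma test of the difference did not pass for either gene.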

How the results depend on the processing

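The change had 0 genes called in either direction under all alternatives except 2. With 1 common control for both times 1 gene was higher (Phgr1) and 1 lower (Cebpd). A common control cancels, so this setting is phosgene 72 h minus 48 h and repeats the calls of that comparison. Without the 3 air lungs high in skeletal muscle genes, chosen after seeing the data, 2 were higher and 0 lower. At 48 h the counts of genes higher and lower (346 and 329) were 102 and 47 with the next brightest probe set, 199 and 179 on chip A alone, 216 and 202 on chip B alone, and 225 and 159 without air lungs numbered 155 to 159. They were 496 and 639 with array weights, 482 and 529 with chip lot, 509 and 516 with hybridization day and 500 and 598 with the replicate block. At 72 h (270 and 235) they were 78 and 32 with the next brightest probe set, 161 and 109 on chip A alone, 35 and 9 without air lungs 155 to 159, 449 and 456 with the replicate block, 147 and 116 with hybridization day, 135 and 98 with chip lot, which leaves 1 air lung at 72 h, and 91 and 76 without the 3 air lungs. Leaving out 1 lung gave 214 to 350 higher and 169 to 340 lower at 48 h, 131 to 299 higher and 97 to 234 lower at 72 h, and 0 for the change. The lowest counts came without phosgene replicates 1 and 3 of 48 h and air replicate 3 of 72 h. With the next brightest probe set the change turned to -0.35 for Kl, 0.27 for Cebpd and 0.10 for Mgat2, and phosgene 72 h minus 48 h to 0.0071 for Cebpd. The cause was not tested. The replicate block treats both chips of a lung as a pair, with a correlation of 0.283. Replicate numbers pair no lungs across groups. Dim genes near the offset have folds pulled toward 0.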
